A study of Mus musculus with 4 samples.

Results

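Olfactory receptor genes of mouse chromosome 7 were examined in a map of the chromatin recovered with the long noncoding RNA Malat1. Taken by rule, they were the protein-coding genes of the RefSeq table (GRCm38.p6) on chromosome 7 whose symbol begins with Olfr: 239 of 21631 protein-coding genes on chromosomes 1 to 19 and X. The cells were 4T1-TGL, a mouse breast cancer line labelled as strain BALBC and genotype WT, with no treatment named. Chromatin isolation by RNA purification (ChIRP) was done once each with Malat1 probe pools called Even and Odd and with LacZ probes, and 1 input, titled Even, was sequenced. The data analysed here are a single list of peaks, called on 1 merged treatment with the input as control. No label or header says which pull-downs were merged, so no value has a replicate error, Malat1 and LacZ probes could not be compared, and no test between conditions was possible. The list held 77823 peaks from 851227 treatment tags, against 50030325 input tags.

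Olfactory receptors are G protein-coupled receptors that detect odorants in the nose. Each mature sensory neuron expresses a single receptor allele, and the other receptor genes, like most receptor genes in other tissues, are kept silent in compact chromatin. The genes lie in clusters of close relatives, and each is usually encoded by a single coding exon. Chromosome 7 carries the class I receptors, the type first described in fish, in a cluster that surrounds the beta-globin genes, and it carries several clusters of class II receptors.

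In 3 members a peak reached into the RefSeq promoter window, which spans 250 bases before to 50 bases after the annotated start (GRCm38.p6). RefSeq gave such windows for 209 of the 239 members. The 3 windows are shown because they are the only ones of the 209 that a peak overlaps. No share of other promoter windows with a peak is given here, so 3 of 209 is not read as few or many. They are written 5′ to 3′ along the gene, and capitals mark the bases that lie inside the peak.

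Olfr645: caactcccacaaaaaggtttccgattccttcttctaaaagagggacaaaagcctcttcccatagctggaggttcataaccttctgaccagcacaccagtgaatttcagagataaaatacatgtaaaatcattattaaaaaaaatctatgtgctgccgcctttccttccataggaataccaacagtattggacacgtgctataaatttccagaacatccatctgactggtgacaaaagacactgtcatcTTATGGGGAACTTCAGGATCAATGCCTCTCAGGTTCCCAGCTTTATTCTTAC

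Olfr687: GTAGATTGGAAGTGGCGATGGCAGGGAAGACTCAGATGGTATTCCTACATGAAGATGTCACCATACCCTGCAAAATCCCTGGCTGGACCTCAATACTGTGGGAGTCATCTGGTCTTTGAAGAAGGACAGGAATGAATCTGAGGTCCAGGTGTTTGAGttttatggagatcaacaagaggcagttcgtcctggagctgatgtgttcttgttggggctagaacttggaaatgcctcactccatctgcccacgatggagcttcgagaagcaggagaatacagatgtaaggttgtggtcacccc

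Olfr45: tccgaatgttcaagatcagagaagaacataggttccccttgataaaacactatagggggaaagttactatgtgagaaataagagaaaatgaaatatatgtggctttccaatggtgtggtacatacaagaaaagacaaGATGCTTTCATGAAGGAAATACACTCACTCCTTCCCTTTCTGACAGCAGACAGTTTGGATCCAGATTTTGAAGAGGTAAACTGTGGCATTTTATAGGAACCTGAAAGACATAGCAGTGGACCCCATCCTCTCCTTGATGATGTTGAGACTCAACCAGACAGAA

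The window of Olfr645 lies at chr7:104085029-104085328 on the minus strand. Its peak of 12 tags (fold 201) covered the last 52 bases, from base 249, which is 2 bases before the ATG at the annotated start. The window of Olfr687 lies at chr7:105227467-105227766 on the plus strand, and its peak of 8 tags (fold 252) covered bases 1 to 157, all upstream of the start. Olfr687 is annotated over 48745 bp, far more than a receptor gene's single coding exon, and it was not established that this annotated start is that of the receptor. The window of Olfr45 lies at chr7:140690634-140690933 on the plus strand, and its peak of 6 tags (fold 212) covered bases 138 to 300, on both sides of the start. The 3 peaks thus touched different parts of the window. In 160 of the 209 windows (76.6%) the annotated start was itself an ATG, against 5.46% of all 32619 windows. For those members the annotated start is where coding can begin, so that the first 250 bases lie before the ATG and the last 50 after it, and a promoter farther upstream would lie outside the window. Member windows were rich in A and T, with a median GC content of 37.0% (quartiles 33.3 and 40.3), against 55.5% in 1840 windows of the other protein-coding genes of the chromosome. Members with a summit (median 36.7%, n = 33) and without (37.2%, n = 176) had similar values. The homeodomain core TAATTA, the same on both strands, was present in 28 member windows (13.4%) against 5.25% of all windows. CCCNNGGG, the core letters bound by Ebf factors and likewise the same on both strands, was present in 9 (4.31%) against 13.8%. Neither was found in the 3 windows shown. A match is only a run of letters. TAATTA holds only A and T, the fixed letters of CCCNNGGG are only C and G, and member windows had a lower median GC content than all windows. The shares were not adjusted for base composition, and its part in either difference was not tested. They therefore do not show that member windows are rich in homeodomain sites or poor in Ebf sites for their composition.

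Few of the receptor genes had a peak. A member was called when the summit of at least 1 peak lay in its body or within 5 kb of either end. This held for 36 of 239 members (15.1%, 95% Wilson interval 11.1 to 20.1, counting error only), with 38 summits between them. By the same rule 60.8% of all protein-coding genes and 57.5% of the 1791 other protein-coding genes of chromosome 7 were called, but these are longer: the median member measured 954 bp and the median other gene of the chromosome 12926 bp. Among genes of at most 2 kb, 30 of 207 members (14.5%, interval 10.3 to 19.9) were called. Of the 235 other short genes of the chromosome, 37 were called (15.7%, interval 11.6 to 20.9), a share close to that of the short members. Among these 235, the 118 vomeronasal genes, which encode pheromone receptors, were called in 3 cases (2.54%, interval 0.868 to 7.21). The remaining 117 short genes were called in 34 cases (29.1%, interval 21.6 to 37.8). By their intervals, the short members lay above the vomeronasal genes and below the remaining short genes, a split made after the data were seen. Of the 36 called members, 30 had 1 summit, 4 had 2 and 2 had 3 (Olfr557 and Olfr687). Since neighbouring windows overlap, 6 summits counted for 2 members each.

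Counted per length of DNA, which sets aside gene length, summits were also sparser near the receptor genes. The windows of all members, merged, covered 2.64 Mb and held 14.4 summits per Mb (exact Poisson 95% interval 10.2 to 19.8). The rest of chromosome 7 held 4204 summits at 29.5 per Mb (28.6 to 30.4). The ratio was 0.489, with an exact conditional 95% interval of 0.346 to 0.673. These intervals take summits as independent, which was not established, and they cover counting error only. Against the windows of other protein-coding genes (36.3 per Mb) the ratio was 0.397 (0.280 to 0.546), and against DNA outside all protein-coding windows (23.0 per Mb) it was 0.627 (0.442 to 0.865). The flanks of 200 kb on each side of the clusters, free of member windows, held 28.6 per Mb, a ratio of 0.504 (0.333 to 0.753). Inside the clusters but more than 5 kb from any member, density was 19.3 per Mb, and the ratio of 0.749 had an interval (0.491 to 1.12) that includes 1. The lower density was therefore measured for the clusters as blocks (17.3 per Mb over their whole spans, 0.605 times the flanks, 0.448 to 0.820), and a further drop at the receptor genes themselves was not resolved. Against the windows of all other genes up to 2 kb (19.1 per Mb) the ratio was 0.754, and its interval (0.481 to 1.18) includes 1. Without vomeronasal genes these windows held 36.2 per Mb, a ratio of 0.398 (0.252 to 0.625). Vomeronasal gene windows were sparser still than member windows at 4.01 per Mb, so that member windows held 3.60 times their density (1.87 to 7.36). The 39 other genes, vomeronasal genes left out, whose promoter GC did not exceed the members' upper quartile of 40.3% held 19.3 per Mb, and the ratio to them of 0.748 had a wide interval (0.431 to 1.33). What part base composition has in the low density was not tested. Receptor genes have close copies, and no label or header states the treatment of reads that match more than 1 place, so all counts near these genes are uncertain, and the part this has in the low density was not tested.

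**Figure D1:**
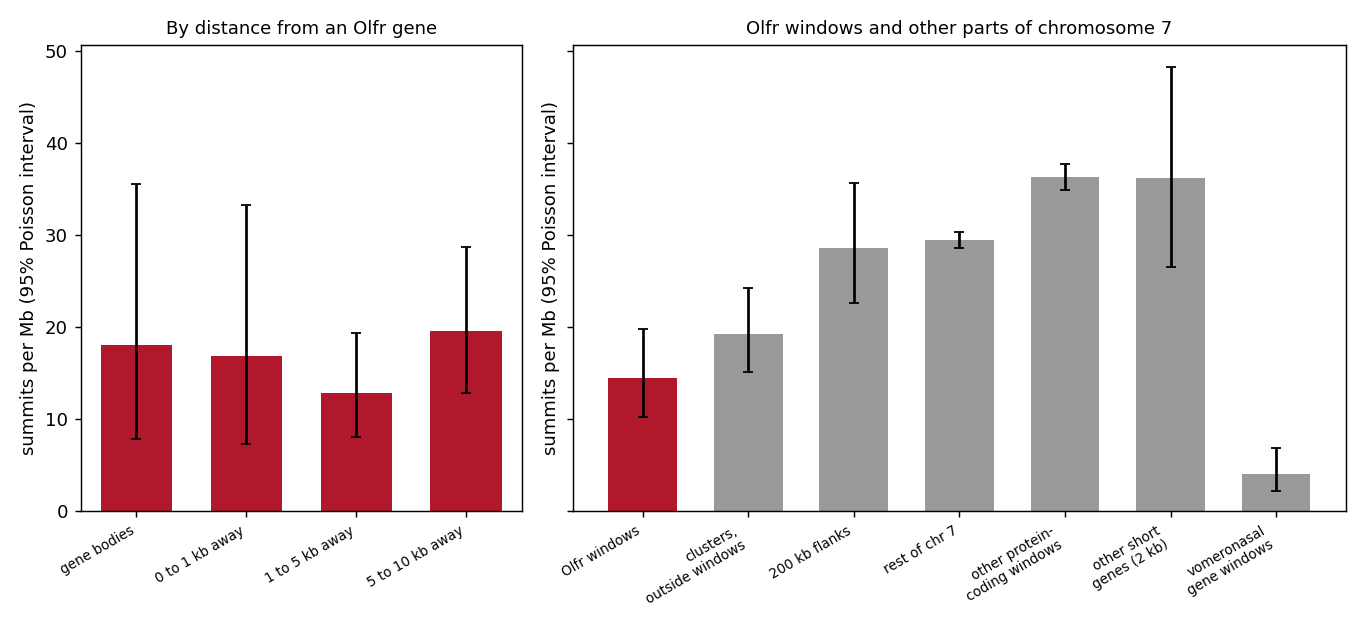
Summits per Mb of DNA, with exact Poisson 95% intervals as bars: on the left in the gene bodies of the 239 receptor genes and in shells around them, on the right in their merged windows (red, 14.4) and in other parts of chromosome 7 (grey). The Olfr windows lie below the rest of the chromosome (29.5) and above the vomeronasal gene windows (4.01).

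Where summits lay relative to the genes could not be resolved at these counts. Bodies held 8 summits (18.0 per Mb, interval 7.79 to 35.6), the first 1 kb outside held 8 (16.9 per Mb, 7.28 to 33.2) and the stretch from 1 to 5 kb held 22 (12.8 per Mb, 8.02 to 19.4). From 5 to 10 kb there were 26 more (19.6 per Mb, 12.8 to 28.7). The values fall from the bodies to 5 kb and are higher beyond it, but all these intervals overlap, so neither a concentration at the genes nor its absence was shown. Where the strand of the nearest member was known and the summit lay outside its body, 15 summits were upstream and 14 downstream. The 5 kb limit fell in a place with many summits. The last summits inside it lay 4573 bp from Olfr549 (5 tags) and 4095 bp from Olfr575 (3 tags). The first outside lay 5001 bp from Olfr566 (4 tags), 5015 bp from Olfr715 (13 tags), 5051 bp from Olfr539 (3 tags) and 5108 bp from Olfr525 (17 tags). With a limit of 10 kb, 63 members were called, but no share over all genes is given for that limit.

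By position the members formed 7 clusters, when genes up to 1 Mb apart were joined. The class I cluster, from Olfr543 to Olfr692 (chromosome 7, 102476773 to 105369317), was the largest, with 126 genes over 2.89 Mb. Of these 21 were called (16.7%, interval 11.2 to 24.1), and their windows held 21 summits, or 15.2 per Mb (9.40 to 23.2). The span as a whole held 38 summits, 13.1 per Mb (9.30 to 18.0), which is 0.427 times the density of its own flanks (30.8 per Mb from 12 summits, ratio interval 0.218 to 0.897). It contained the longest stretch with no summit in any of the 7 clusters, 408 kb from 104692721 to 105100277, the 13th longest of 4241 gaps on the chromosome. That stretch holds 14 receptor genes from Olfr663 to Olfr679, among them Olfr666 (named after its value was seen), which at 199949 bp was farther from a summit than any other member. The median gap on the chromosome was 18.5 kb.

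The cluster from Olfr693 to Olfr519 (106677534 to 108894405) held 67 genes over 2.22 Mb, of which 7 were called (10.4%, interval 5.15 to 20.03). Its windows held 8 summits (11.1 per Mb, 4.78 to 21.8) and its span 42 (18.9 per Mb, 13.7 to 25.6), against 38.5 per Mb in the flanks. The ratio to the flanks was 0.288 for windows (0.106 to 0.724) and 0.493 for the span (0.268 to 0.956). Olfr2, which encodes the I7 receptor for octanal, and Olfr17, the P2 receptor used in studies of axon guidance, lie here and were named after their values were seen. Neither was called, and their nearest summits were 35769 and 30309 bp away. Olfr1532-ps1, a member by its biotype although its symbol is that of a pseudogene, lies here too, 78604 bp from a summit.

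Near the end of the chromosome, the cluster from Olfr522 to Olfr541 (140162010 to 140705191, 19 genes) had 5 called genes (26.3%, interval 11.8 to 48.8). With 29.5 summits per Mb over the span (16.8 to 47.8) and 41.0 in the flanks, its ratio of 0.718 has an interval (0.336 to 1.53) that includes 1. For the cluster from Olfr310 to Olfr292 (86268730 to 86695384, 15 genes) the ratio lay above 1, but its direction was not resolved. This cluster held 11 summits over the span, 25.8 per Mb (12.9 to 46.1), while its flanks held only 3 (7.69 per Mb). The ratio of 3.35 has an interval of 0.885 to 18.7, which includes 1. The interval of the span density also holds the 29.5 per Mb of the rest of the chromosome. In the windows of this cluster there were 3 summits, at 3 called genes. No member was called in the 3 smallest clusters: Olfr1344 to Olfr1350 (8 genes, 6439902 to 6570919), Olfr291 and Olfr290 (84853571 to 84916728), and Olfr520 and Olfr521 (99735145 to 99768130). Their windows are short, and a count of 0 there, taken as up to 3 summits, still allows 35.3, 121 and 137 per Mb respectively, so that a density like that of the rest of the chromosome was not detectable as different. Whether the clusters differ from one another was not tested.

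**Figure D2:**
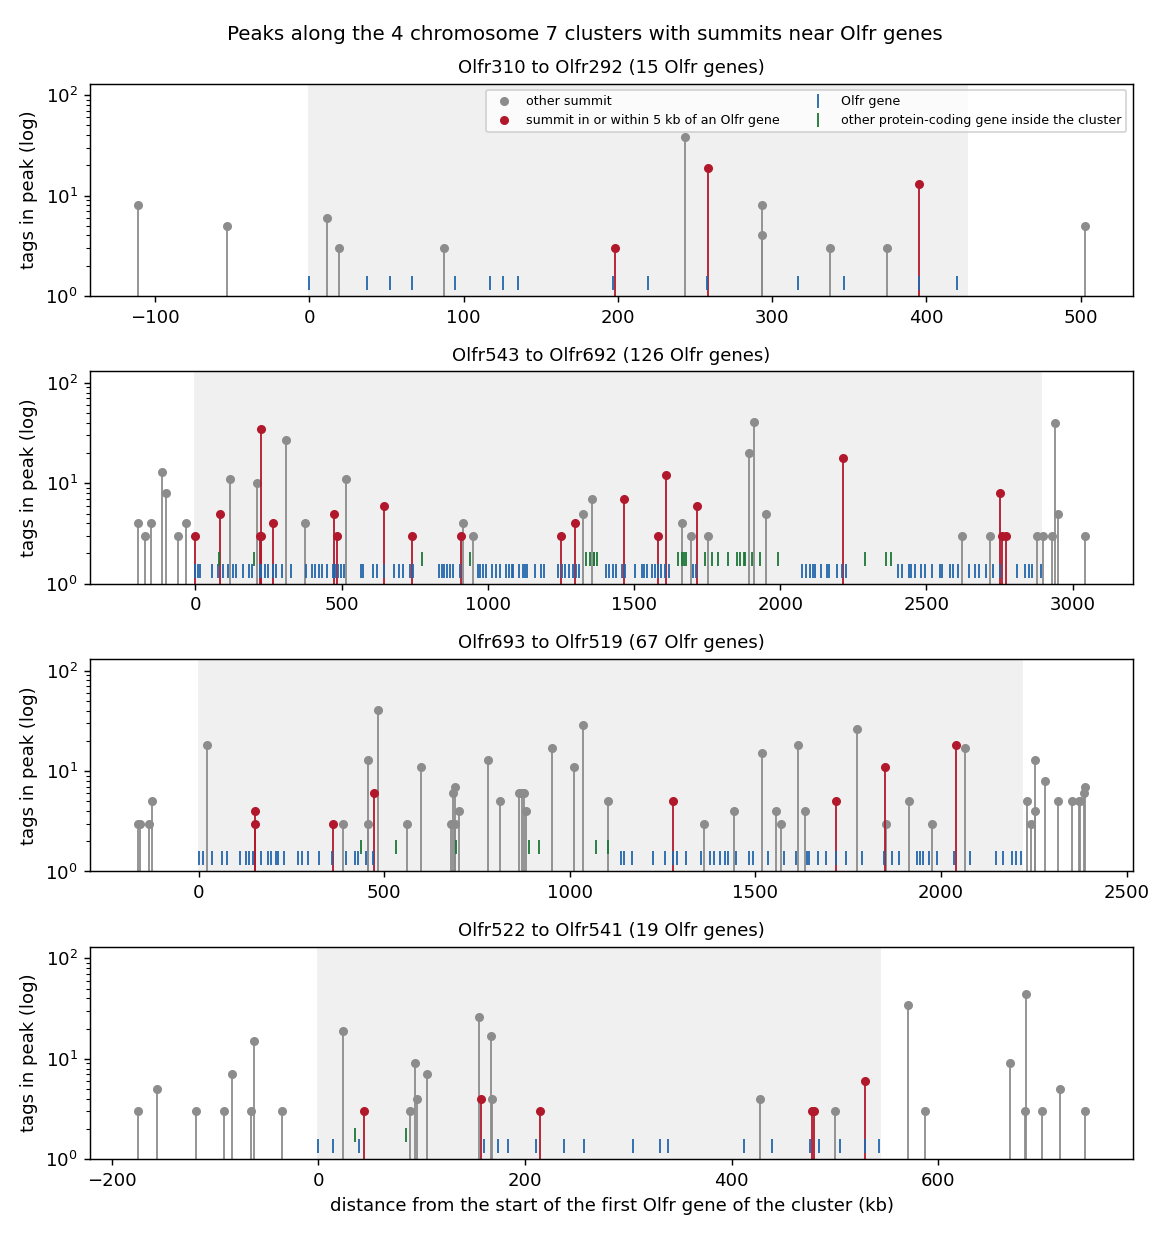
Each panel is 1 of the 4 clusters with called members, in kb from its first receptor gene (x), and each stem is a peak with its number of tags (y, log scale): red for summits in or within 5 kb of a receptor gene, grey for others. Blue ticks are the starts of receptor genes and green ticks those of other protein-coding genes, the cluster span is shaded, and 200 kb are shown to either side. The long summit-free stretch of 408 kb lies in the right part of the class I cluster.

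The member peak with the most tags and the one with the highest fold both lay in the class I cluster. The first of these was in Olfr558 (chromosome 7, 102702323 to 102712054, gene ID 259097), a class I receptor for short-chain fatty acids. The peak ran from 102702573 to 102702953, held 35 tags with an authors' fold of 466 over input (rank 2432 of all peaks), and its summit was 372 bp after the annotated gene start. A second, 3-tag peak lay 815 bp upstream of that start. Both fall in the 5 kb window of the neighbouring Olfr557 too, which had another 3-tag summit 2216 bp upstream of its own start. Olfr78 (102740721 to 102759471), another class I receptor for short-chain fatty acids that is also expressed outside the nose, had 1 summit in its body, with 4 tags and a fold of 107. The peak of Olfr558 thus held 35 tags and that of its near neighbour 4, and 1 merged list gives no replicate error for that difference.

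The highest fold among the members, 502 (rank 1822), belonged to an 18-tag peak 3745 bp downstream of Olfr661, at the edge of the 408 kb stretch. The Olfr558 peak was next by fold, and then Olfr502, with an 11-tag peak at fold 419 that lay 3780 bp upstream. Olfr512 had an 18-tag peak at fold 359, beyond its downstream end. Olfr649 had a peak of 6 tags at fold 336 with the summit 820 bp upstream. Olfr586, with 6 tags, reached a fold of 280. These values show how few tags stand behind a large fold. Scaled down to the depth of the treatment, the genome-wide mean background is 0.0167 tags per fragment length. A summit height of 3 tags at mean input thus gives a fold of 180, the highest possible at that height. Olfr632 and Olfr633, which share a peak, and Olfr716 and Olfr628 had exactly this value.

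Summits lay in the bodies of 7 members. Besides Olfr558, Olfr78 and Olfr645, these were Olfr297 (19 tags, fold 308, summit 562 bp after the start), Olfr293 (13 tags, fold 303, 535 bp after), Olfr495 (5 tags, fold 299, 339 bp after) and Olfr687 (2 summits of 3 tags each). Olfr297 and Olfr293 are genes of 933 and 1011 bp, so their peaks of 357 and 205 bp lay wholly within the gene. They belong to the same cluster, and their peaks and that of Olfr299, with 3 tags, are the only 3 member peaks there. Olfr687 is the longest of all members, and 3 of the 38 member summits were counted through it. Without it the density ratio to the rest of the chromosome was 0.461 (0.320 to 0.642).

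As a set, the 38 peaks resembled other peaks of the chromosome in size. Median tags were 4 in both, and 17 of 38 (44.7%, interval 30.1 to 60.3) held the minimum of 3 tags, against 38.9% of the rest. Peaks of at least 10 tags made up 7 of 38 (18.4%, interval 9.22 to 33.4) and 20.6% of the rest, and the only member peak of at least 30 tags was that of Olfr558. Median length was 133 bp against 134 bp. Median fold was 158 (quartiles 120 and 242) against 145 (104 and 212). Fold divides the summit height by the highest local background, and the implied input differed. The implied input is that background at a peak in units of the genome mean, computed from height and fold. Its lowest value was 1.00 in both sets, and 8 of the 38 member peaks lay within 0.1% of 1. At such peaks the local input may lie below the mean, and how far is not known. It had a median of 1.13 at member peaks (quartiles 1.04 and 1.28, highest 1.79) against 1.30 on the rest of the chromosome (1.15 and 1.51). An implied input of 2 or more occurred at 0 of 38 member peaks, which allows a share of up to 7.89% (3 counts), against 4.47% of the rest. Input level is known only at peaks, and its part in the number of summits was not tested.

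**Figure D3:**
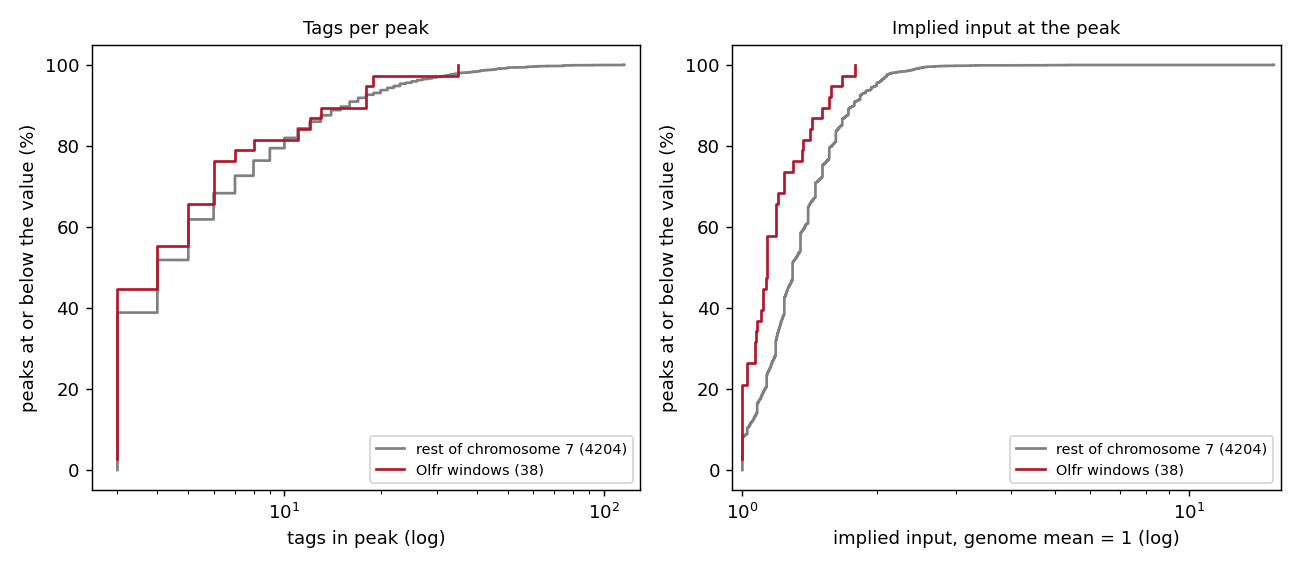
Cumulative share of peaks (y, percent) by tags per peak (left) and by implied input (right), both on log axes, for the 38 peaks of the receptor gene windows (red) and the 4204 other peaks of chromosome 7 (grey). The curves for tags run close together, with a median of 4 in both, whereas the red curve for implied input lies to the left (medians 1.13 and 1.30).

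Other protein-coding genes inside the clusters were called more often than the receptor genes, and they are longer. Of 36 such genes, 13 (36.1%) had a summit. The share was 57.5% for the other protein-coding genes of chromosome 7 and 60.8% for all protein-coding genes. Median length was 9757 bp for the 36 genes, against 12926 bp for the other genes of the chromosome. The windows of the 36 held 23.9 summits per Mb (15.8 to 34.8), beside 36.3 in the windows of other protein-coding genes. The same peak could count for these genes and for receptor genes. The only peak of Trim21 is also that of Olfr549, and the peak of Olfr716 lies in the body of Nlrp14. Likewise the only peak of Cd163l1 (named after its values were seen), in the body of that gene, is also the only peak of Olfr524. The highest folds were at Nlrp14, an oocyte protein of the NLR family (621, 41 tags), Ppfibp2, a liprin (566, 29 tags), and Trim30c, one of the Trim genes that interrupt the class I cluster (523, 41 tags). Gm38525 (419), 5830411N06Rik (359), Syt9, a synaptotagmin of vesicle release (222), Trim68 (205), Trim21, a cytosolic antibody receptor (202), and Ovch2 (128) followed. The 5 globin genes inside the class I cluster (Hbb-bt, Hbb-bs, Hbb-bh2, Hbb-bh1 and Hbb-y) had no summit, nor did any of the 5 Usp17l genes there. Of other genes of the chromosome up to 2 kb, 15.7% had one, and groups of 5 are too few to set beside such a share. The nearest summits to Hbb-bh2 and Hbb-bs lay just past the limit, at 5306 and 5567 bp. Usp17le, Usp17lb and Usp17la lie in the 408 kb stretch described above. The globin genes and Usp17l genes were singled out after their values were seen.

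Genes that act with the receptors were also examined, from a list of 25 genes of odour transduction and receptor choice. Of these, 19 (76.0%) had a summit, beside 60.8% of all protein-coding genes. Their median length of 52255 bp, against 17329 bp for all, bears on such a share. The highest folds were at Cngb1, a subunit of the olfactory cyclic nucleotide-gated channel (479, 11 tags), Pde1c, which degrades cyclic AMP (419), Ebf1, a transcription factor of olfactory neurons (359), Reep1 (342), and Ano2, the olfactory chloride channel (286). Slc24a4 (263), Bptf (234), Adcy3, the odour-responsive adenylyl cyclase (204), Gnb1 (191) and Ric8b (180) came next. Of the 3 list genes on chromosome 7, named after their values were seen, Omp, which encodes olfactory marker protein, had 2 summits near it and Cnga4, another channel subunit, had 1 of 3 tags. Atf5, a factor induced when receptor choice is made, had none within 10825 bp. Lhx2 and Ldb1, which bind receptor enhancers and were also named after their values were seen, had no summit within 5 kb either.

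The ratio found on chromosome 7 was among the lowest of the chromosomes with receptor genes. On the other chromosomes 202 of 871 Olfr genes (23.2%) were called, and without chromosome 9 it was 136 of 741 (18.4%, interval 15.7 to 21.3). Among 13 chromosomes with at least 10 such genes, the density ratio of Olfr windows to the rest of the chromosome was lowest on chromosome 2 (0.472, 0.360 to 0.609), then on chromosome 7 (0.489), chromosome 10 (0.498, 0.257 to 0.871) and chromosome 11 (0.513, 0.317 to 0.784). The intervals of these 4 overlap almost wholly, and all lie below 1. Chromosome 9 stood at the other end with 66 of 130 genes called (50.8%) and a ratio of 1.39 (1.12 to 1.70), and its interval does not overlap that of chromosome 7. Median implied input at the Olfr peaks of chromosome 9 was 2.60, against 1.73 on the rest of that chromosome, whereas on chromosome 7 it was lower at the Olfr peaks than on the rest, as it was on 11 of the 13 chromosomes. The part of input level in this difference was not tested.

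**Figure D4:**
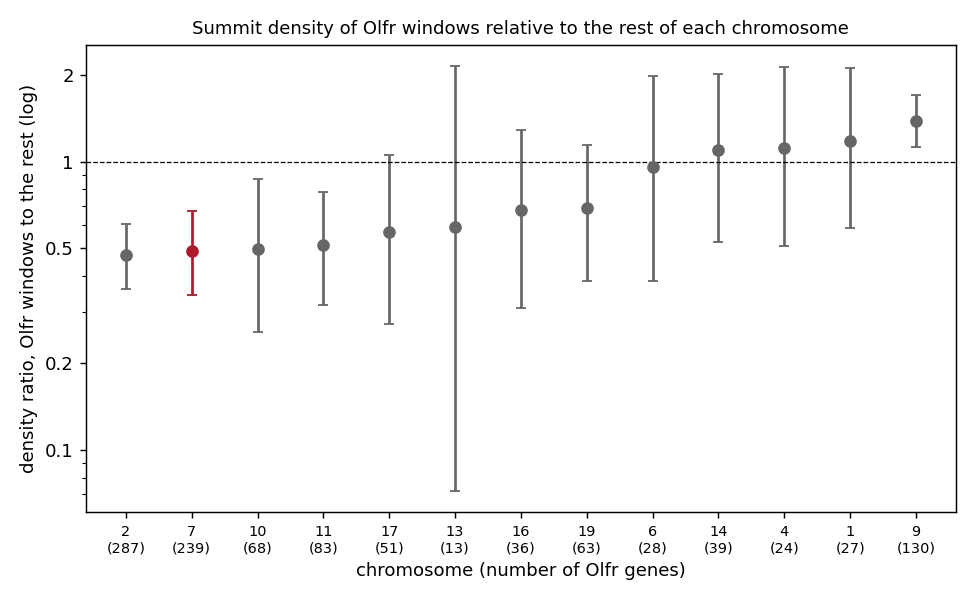
Ratio of summit density in Olfr windows to the rest of the same chromosome (y, log scale, exact conditional 95% intervals) for 13 chromosomes with at least 10 Olfr genes, in rising order, with the number of genes in brackets. Chromosome 7 (red, 0.489) is second from the left, beside chromosome 2 (0.472), and chromosome 9 (1.39) is at the right.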

How the data were processed

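The authors deposited 3 lists of the same 77823 peaks from 1 run of MACS 1.4.4 on a merged treatment against input (p cutoff 1e-05, fragment length 53 bp, duplicate tags removed, larger library scaled down), per the file headers. The build was mm10, per the submitters' processing notes. No label or header names the aligner. Per the file headers the tags are whole-number counts of treatment tags per peak, the fold enrichment is a ratio of summit height to the highest local background, and the score is the −log10 of the p-value of MACS, multiplied by 10. The summit height is a deposited signal, the unscaled pileup. The false discovery rate, deposited in percent, is 0 throughout and was not used.

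From these files, summits were assigned to RefSeq genes (GRCm38.p6, a C57BL/6J assembly, while the line is labelled BALBC), and windows, counts, densities and intervals were computed with Python 3.11.15 and scipy 1.17.1. The implied input used an effective genome size of 2.7 gigabases. The density script was tested on simulated data. The members and lists were chosen with earlier results of these data known. The rest of the chromosome runs from the first to the last gene or summit. The gene table places 10 genes, none a member, in the first 3 Mb, where no summit lay. Comparisons with vomeronasal genes, short genes, GC content and distance shells were added after the data were seen. Named genes were the members highest by fold, by tags and by summits, those with a summit in the body, the ends of each cluster, and up to 10 genes by fold of the 2 other lists. Others are marked where they appear, and 1 gene that the rule names is not reported here. Depth is the tag totals of the merged libraries, and peaks are not replicates.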

Additional observations from a re-analysis of the deposited data

How the results depend on the processing

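No paired analysis was possible because each group has 1 library and only 1 merged list was analysed, and leaving out a replicate was not possible for the same reason. The density ratio of 0.489 stayed below 1 under the 13 alternatives run for it (0.397 to 0.618). Further references given above were not among these 13. DNA outside all protein-coding windows gave 0.627 and short genes without vomeronasal genes 0.398, with intervals below 1. All other short genes gave 0.754, genes of low promoter GC 0.748 and cluster DNA outside member windows 0.749, with intervals that include 1. Vomeronasal gene windows gave 3.60. With gene bodies alone the ratio to the rest of the chromosome was 0.618, but its interval (0.266 to 1.22) includes 1. The 2 alternatives added after the data were seen, without Olfr687 and with the chromosome taken from its first to its last summit, gave 0.461 and 0.477. The count of 36 called members depends on the window and the peak filter by construction: 7 with the body alone, 13 with 1 kb, 63 with 10 kb, 20 with peaks of at least 5 tags and 21 with peaks at or above the median score. It was 28 to 39 under the other 4. Shares over all genes are given only for the 5 kb rule with all peaks, so these other counts are not read as high or low. Median fold rose from 158 to 280 among peaks of at least 5 tags, a filter that removes low folds, and was 249.9 for the 8 body summits. Median implied input was 1.13 with 5 or 10 kb. The number of clusters was 8 with a gap of 500 kb and 5 with 2 Mb. With 851227 treatment tags the list gave 38 summits near these genes, which limits every ratio given for a single cluster.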

Other observations

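Of the 55 Olfr pseudogenes annotated on chromosome 7, which the rule leaves out, 4 had a summit at most 5 kb away. By the same limit 15.1% of members, 15.7% of other protein-coding genes of the chromosome up to 2 kb and 60.8% of all protein-coding genes were called. Whether the pseudogenes differ from these was not tested. The peaks below with many tags lay just beyond the 5 kb limit or between receptor genes and count for no member: 50 tags (fold 638) at 6723 bp from Olfr1349, 26 tags (fold 347) at 5647 bp from Olfr525, and 18 tags (fold 534) at 5127 bp from Olfr490. Each was chosen after its values were seen. The median member lay 23250 bp from its nearest summit, against 2531 bp for the other protein-coding genes of the chromosome, which are longer. Among genes of at most 2 kb the median was 23729 bp for members and 36186 bp for the other genes, which divide into vomeronasal genes at 107696 bp and the remaining short genes at 14292 bp.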
